A study of Arabidopsis thaliana with 6 samples.

Results

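A set of 36 genes of xylem vessel formation and secondary wall deposition was followed in callus, the mass of dividing cells that grows from cut plant tissue on hormone medium. The genes were chosen by locus code from known roles: 7 VND master switches, 3 fibre switches, regulators below and beside them, and the enzymes, wall proteins and death genes that they control. Earlier results of these data were known when the genes were chosen. All 36 were found among the 31305 loci of the table. Hypocotyl pieces came from 1-week-old Arabidopsis thaliana seedlings and had spent 7 days on callus-inducing medium. Bulk messenger RNA of 3 callus samples of the wild type Col-0 was compared with that of 3 labelled rap2.12-2, which are described as biological replicates. The mutant name refers to RAP2.12, a transcription factor of the ethylene response family that activates genes for low oxygen. The labels give no other allele or agent and do not describe the rap2.12-2 lesion. Values are TPM, a share of transcripts that divides by transcript length and keeps no sequencing depth, so precision is read from the spread between libraries.

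Vessel cells of the xylem build a thick patterned secondary wall, then die and empty themselves so that water can flow through. NAC factors of the VND family switch this fate on. They act through a second tier of MYB factors on genes for cellulose, xylan and lignin, and on proteases and nucleases that clear the dying cell. Cambium cells are held back from this fate by the peptide receptor PXY, and thermospermine made by ACL5 restrains vessel formation.

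RAP2.12 (AT1G53910), the check of the label, measured 123, 140.0 and 161 TPM in the Col-0 libraries, against 359.6, 363 and 465 TPM in those labelled rap2.12-2, and so was higher in all 3 libraries named for its mutant (log2 fold change 1.48, SE 0.17, limma adjusted p = 0.026). Directions below are therefore those of the libraries labelled rap2.12-2 against Col-0. None of the 36 genes lies within 1 Mb of RAP2.12. Col-0 replicate 1 stood apart in its total, 845341 TPM against 984523 to 992724 in the other libraries, and in its organelle transcripts, 12005 TPM against 157 to 537. On the first principal component the library labelled rap2.12-2 replicate 1 was the most distant (-69.2, where the others lay between -4.63 and 44.8). Root stem cell genes known from callus were present: WOX5 measured 26.7, 28.0 and 29.5 TPM in Col-0 and PLT1 96.3, 117 and 116 TPM. The leaf gene RBCS1A stayed between 0.71 and 2.71 TPM in the 6 libraries. Members of the xylem set were also present, among them XCP1, a vessel protease gene with a higher mean in Col-0 than 89.6% of the 18629 genes that averaged 1 TPM or more over the 6 libraries and were tested.

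Promoter sequence is shown first because a short element links 5 of these genes. The tracheary element regulating element (TERE), 11 bases long with base 4 and base 10 free, was defined from promoters of vessel genes. It was searched on both strands from 250 bases before to 50 bases after the annotated gene start (RefSeq, TAIR10.1). It was found in 5 of 36 genes (13.9%), where 123 of 27444 protein-coding genes (0.448%) hold it. Over 1000 bases upstream, 6 of 36 genes (16.7%) and 1.45% of protein-coding genes hold it, and TED7 is the added gene, with a match whose first base is at -895 from its start. As the element was defined on such genes, this excess is a description and not independent evidence. The 5 windows follow in lower case, 5′ to 3′ in the direction of the gene, with the match in capitals.
XCP1: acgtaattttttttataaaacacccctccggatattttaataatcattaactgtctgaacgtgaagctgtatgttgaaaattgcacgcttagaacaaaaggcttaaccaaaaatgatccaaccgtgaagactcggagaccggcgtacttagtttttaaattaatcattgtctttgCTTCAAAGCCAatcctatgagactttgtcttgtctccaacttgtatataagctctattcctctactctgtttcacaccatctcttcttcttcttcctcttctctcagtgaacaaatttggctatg
CESA4: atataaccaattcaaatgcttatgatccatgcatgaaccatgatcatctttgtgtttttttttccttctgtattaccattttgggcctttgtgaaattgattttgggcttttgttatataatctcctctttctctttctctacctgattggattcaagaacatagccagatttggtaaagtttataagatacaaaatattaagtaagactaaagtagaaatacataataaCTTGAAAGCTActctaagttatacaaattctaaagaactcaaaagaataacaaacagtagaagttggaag
FLA11: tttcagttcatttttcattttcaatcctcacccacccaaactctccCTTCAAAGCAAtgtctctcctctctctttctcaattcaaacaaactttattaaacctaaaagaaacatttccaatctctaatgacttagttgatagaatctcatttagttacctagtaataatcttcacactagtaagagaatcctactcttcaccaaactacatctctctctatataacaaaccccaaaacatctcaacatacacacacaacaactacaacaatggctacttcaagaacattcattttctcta
MC9: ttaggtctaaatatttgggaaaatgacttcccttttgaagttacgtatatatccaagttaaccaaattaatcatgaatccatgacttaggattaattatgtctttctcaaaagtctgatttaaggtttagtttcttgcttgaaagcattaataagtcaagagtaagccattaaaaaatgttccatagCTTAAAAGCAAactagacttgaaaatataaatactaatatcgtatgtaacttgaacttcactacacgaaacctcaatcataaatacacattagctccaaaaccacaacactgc
LBD30: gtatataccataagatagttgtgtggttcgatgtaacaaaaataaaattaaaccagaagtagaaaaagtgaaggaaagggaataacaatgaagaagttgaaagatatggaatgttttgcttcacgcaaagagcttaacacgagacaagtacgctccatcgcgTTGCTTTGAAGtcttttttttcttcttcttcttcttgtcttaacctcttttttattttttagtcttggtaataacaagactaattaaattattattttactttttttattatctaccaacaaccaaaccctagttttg
They lie at chr4:16810232-16810531, plus strand (XCP1), chr5:17714140-17714439, plus strand (CESA4), chr5:753608-753907, minus strand (FLA11), chr5:1153490-1153789, plus strand (MC9) and chr4:89658-89957, plus strand (LBD30). The first base of the match is at -75, -20, -204, -63 and -88 from the annotated start in that order. In LBD30 the match is on the opposite strand, so the capitals read as its reverse complement. The CESA4 window also overlaps the annotated gene AT5G44020, and the FLA11 window AT5G03180. A second element, the secondary wall MYB-responsive element (SMRE), is the target of MYB46 and MYB83. It begins with ACC and goes on with A or T, then A, then A or C, then C or T, and was searched on both strands. No TERE match of a member overlapped an SMRE match. The SMRE occurred in 17 of the 36 windows (47.2%) and in 33.6% of those of all protein-coding genes. TED6 and XCP2, the members with the largest log2 fold changes between the genotypes, hold no TERE match in this window. They also hold no SMRE match in its 250 bases before the gene start. SMRE matches in the 50 bases after the start were counted but not listed by gene.

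No gene of the set passed the test, and the wall and death genes lay slightly higher in the libraries labelled rap2.12-2. In limma with Benjamini-Hochberg adjustment over 18629 genes, 0 of the 33 members with a mean of at least 1 TPM passed at 0.05, where 0.0698% of all tested genes did (0.0429% higher and 0.0268% lower). The smallest adjusted p of a member was 0.38. On simulated data this test passed 42% of 2-fold and 87% of 4-fold changes, and 8 of its 137 calls were false. Changes were planted only in genes whose mean log2(TPM + 1) exceeded 2, so the shares do not cover lower members. The noise was independent between genes, without libraries that shift many genes together. The largest log2 fold change of a member, 0.94, was below 2-fold, so a member that did not pass can still differ. At an unadjusted p under 0.05, 6 members lay higher (18.2%, where 3.22% of all tested genes did), namely TED6, XCP2, XCP1, LAC11, IRX9 and TED7. MYB63 was the 1 that lay lower (where 3.62% did). The groups did not overlap in 6 members that lay higher, against 6.62% of all tested genes, and in 2 that lay lower, against 6.03%. A positive log2 fold change was found in 23 of 33 members (69.7%) and in 46.7% of all tested genes, and a negative one in 10 members and in 53.3%. The median was 0.21 for the members and -0.02 for all tested genes. XCP1 and XCP2 had been seen to lie higher in these data before the members were chosen. The shares of members are thus descriptions and not independent evidence. In bulk RNA, a larger share of vessel cells and more RNA per vessel cell cannot be told apart.

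The set divided by role, a division made after the values were seen. Of 18 genes for wall building and cell death, 17 had positive log2 fold changes, and the median was 0.37. Of all tested genes, 46.7% were positive, and their median was -0.02. Of 13 tested regulators, 6 were positive (46.2%, near the share of all tested genes) and 7 negative, and the median was -0.06. This last median was 0.02 with quantile scaling, and ran from -0.10 to 0.15 on leaving out 1 library, where 12 or 13 regulators were tested. ACL5 and PXY, which restrain vessel fate, were both negative, while XND1, a restraint counted among the regulators, was positive (0.43). None of these 15 passed the test. The difference between roles was not tested. The median of all members was 0.06 without Col-0 replicate 1, where the median of all tested genes was -0.10, and was 0.32 without the library labelled rap2.12-2 replicate 1, where that of all genes was 0.06. The median of the wall and death genes was 0.23 without the library labelled rap2.12-2 replicate 3. Relative to the median of all tested genes it lay 0.28 to 0.46 above in the 6 fits that left out a single library.

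**Figure D1:**
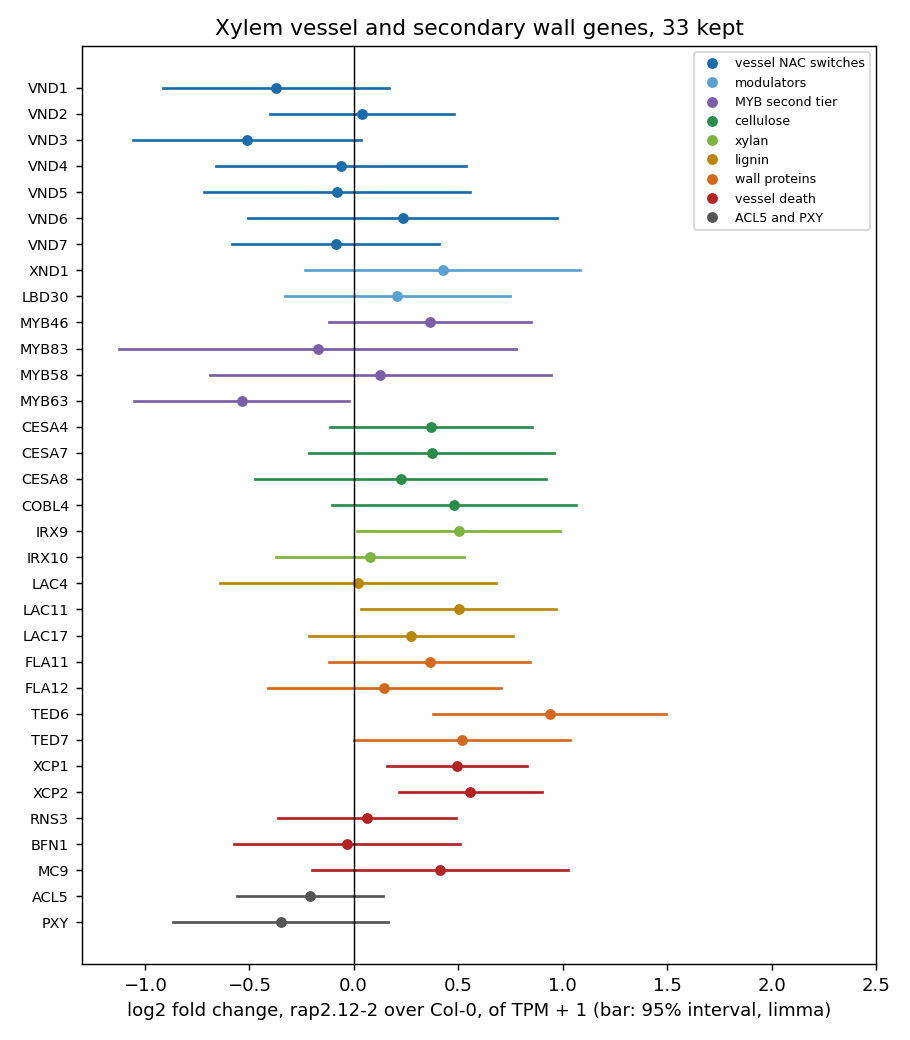
Log2 fold change (libraries labelled rap2.12-2 over Col-0, of TPM + 1) of each of the 33 tested genes, coloured by role, with bars for limma's 95% intervals that are not adjusted for the number of genes. Wall, protein and death genes lie mostly to the right of 0 and the VND switches around it, and 7 intervals exclude 0.

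The VND switches were all transcribed in callus at low to moderate levels, and none passed the test. VND1 (AT2G18060) was the most abundant, at 19.9, 24.0 and 21.7 TPM in the Col-0 libraries, against 15.0, 12.7 and 24.0 TPM in those labelled rap2.12-2 (log2 fold change -0.37, 95% interval -0.91 to 0.17). Its lowest values were in the libraries labelled rap2.12-2 replicates 1 and 2, while replicate 3 matched the highest Col-0 library to 0.01 TPM. VND2 (AT4G36160) measured 9.28, 10.4 and 12.7 TPM in Col-0 against 10.3, 10.3 and 12.5 TPM, nearly the same range in both groups. VND3 (AT5G66300) measured 11.6, 8.41 and 12.6 TPM in the Col-0 libraries, against 5.37, 8.40 and 8.33 TPM in those labelled rap2.12-2. Its groups did not overlap, by the narrow gap of 8.41 to 8.40 TPM (log2 fold change -0.51, SE 0.24, limma adjusted p = 0.77). VND1 and VND2 are alike over 268 bases at 88.4% identity, and VND4 and VND5 over 275 bases at 87.6%. For none of the 36 genes did another locus match 100 or more bases at an identity of 95% or above.

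The 2 switches best known for vessel type had overlapping groups. VND6 (AT5G62380), the switch of metaxylem vessels, measured 2.74, 4.10 and 4.62 TPM in the Col-0 libraries, against 2.65, 6.91 and 5.07 TPM in those labelled rap2.12-2. The widest spread was within the libraries labelled rap2.12-2, which held both the lowest and the highest value (log2 fold change 0.24, 95% interval -0.50 to 0.98). VND7 (AT1G71930), the switch of protoxylem vessels, measured 5.85, 5.28 and 6.89 TPM in Col-0 against 6.76, 5.29 and 4.81 TPM (log2 fold change -0.09, 95% interval -0.58 to 0.41). VND4 (AT1G12260) measured 3.84, 5.57 and 4.79 TPM in Col-0 against 3.06, 5.06 and 5.62 TPM, and VND5 (AT1G62700) 1.26, 2.28 and 1.84 TPM in Col-0 against 1.89, 1.70 and 1.29 TPM, with overlapping groups. The summed level of the 7 VND genes was 54.4 to 65.1 TPM in the Col-0 libraries, against 45.0 to 61.6 TPM in those labelled rap2.12-2.

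The fibre switches were at or near 0. SND1 (AT1G32770), which drives wall thickening in fibres, measured 0.24, 0.24 and 0 TPM in the Col-0 libraries, against 0.11, 0 and 0.10 TPM in those labelled rap2.12-2. NST1 (AT2G46770), its partner in fibres, measured 0, 0.61 and 0.11 TPM in Col-0 against 0, 0.13 and 0 TPM. NST2 (AT3G61910), known from the anther wall, was listed at 0 in 5 libraries and at 0.12 TPM in the library labelled rap2.12-2 replicate 1. These are the 3 members under the filter of 1 TPM. Together the 3 genes summed to at most 0.85 TPM in any library, against 54.4 to 65.1 TPM for the VND genes in Col-0.

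**Figure D2:**
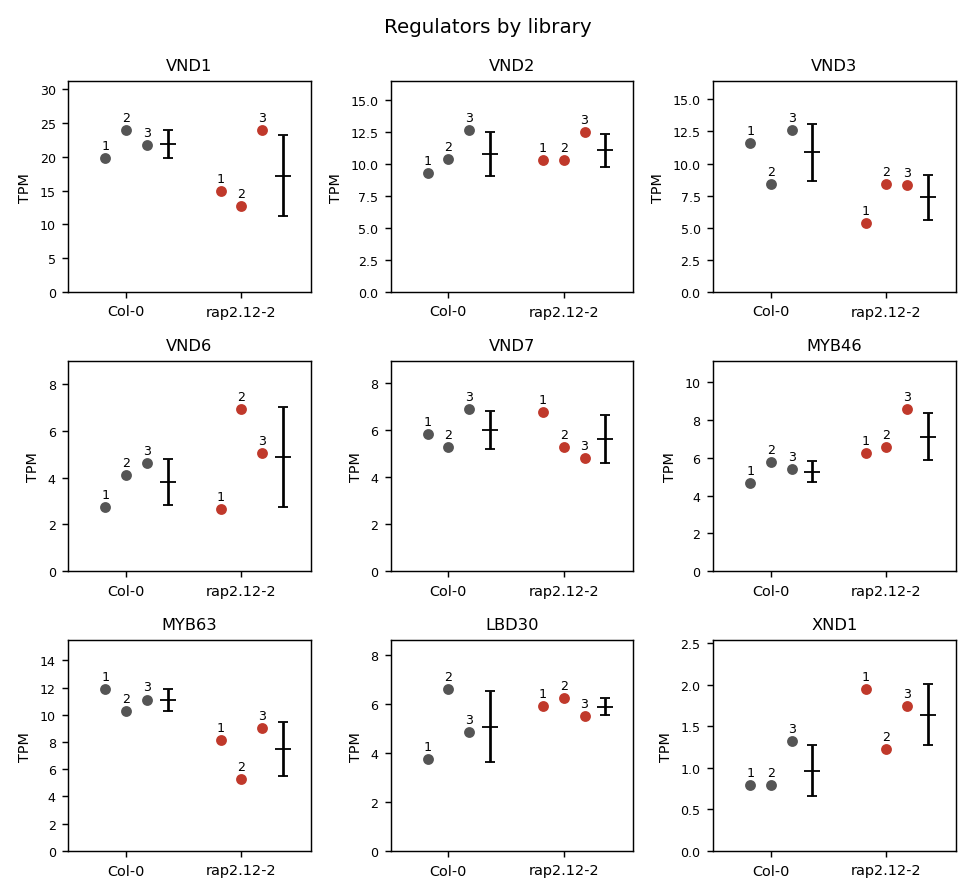
TPM of 9 regulators in each library (points numbered by replicate; grey Col-0, red rap2.12-2; bar, mean ± SD of 3). MYB63 and VND3 lie lower and MYB46 higher in all 3 libraries labelled rap2.12-2, and the other 6 genes overlap between the groups.

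The modulators and the MYB tier shared no direction. XND1 (AT5G64530), a NAC factor that limits vessel differentiation, measured 0.79, 0.79 and 1.32 TPM in the Col-0 libraries, against 1.95, 1.23 and 1.74 TPM in those labelled rap2.12-2, near the detection filter. LBD30 (AT4G00220, JLO in the reference), which works in a feedback loop with the VND factors, measured 3.73, 6.60 and 4.85 TPM in Col-0 against 5.91, 6.22 and 5.51 TPM, and Col-0 held both its lowest and its highest library. MYB46 (AT5G12870), a second-tier switch that acts together with MYB83, measured 4.68, 5.75 and 5.38 TPM in the Col-0 libraries, against 6.23, 6.57 and 8.55 TPM in those labelled rap2.12-2. All 3 of the latter lay above all of Col-0 (means 5.27 ± 0.54 and 7.12 ± 1.25 TPM, SD, n = 3 each; log2 fold change 0.37, limma adjusted p = 0.84). MYB83 (AT3G08500) measured 0.47, 1.77 and 1.1 TPM in Col-0 against 0.08, 1.36 and 1.35 TPM and was thus nearly undetected in 1 library.

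MYB58 and MYB63, which activate lignin genes, lay apart from each other. MYB63 (AT1G79180) measured 11.9, 10.2 and 11.1 TPM in the Col-0 libraries, against 8.17, 5.28 and 9.05 TPM in those labelled rap2.12-2. Its groups did not overlap, and no other member lay lower at an unadjusted p under 0.05 (log2 fold change -0.54, SE 0.23, limma adjusted p = 0.70). MYB58 (AT1G16490) measured 1.05, 1.21 and 1.26 TPM in Col-0 against 0.82, 2.88 and 0.89 TPM, with the library labelled rap2.12-2 replicate 2 far above the rest. MYB58 is overlapped along its whole length, 1434 bases, by the long non-coding RNA gene AT1G16489 on the other strand. Whether reads were counted by strand is not given in the sources used here, so reads of the 2 cannot be assigned with certainty.

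TED6 had the largest log2 fold change of the set. TED6 (AT1G43790, chromosome 1, 16575759 to 16576541, plus strand, a single exon) encodes a membrane protein that binds the secondary wall cellulose synthase. It measured 17.0, 22.1 and 24.8 TPM in the Col-0 libraries, against 56.6, 30.5 and 40.6 TPM in those labelled rap2.12-2. All 3 of the latter lay above Col-0, and they were spread widely, with the highest value in replicate 1 (mean ± SD of 3 libraries 21.3 ± 3.97 against 42.5 ± 13.2 TPM, ratio 2.0; log2 fold change 0.94, SE 0.25, limma adjusted p = 0.38). Without replicate 1 of both groups, a choice made after the data were seen, its log2 fold change was 0.57 (limma adjusted p = 0.72, in a range of 0.30 to 0.88 over the alternatives). Its partner TED7 (AT5G48920, chromosome 5, 19835337 to 19836258, plus strand) measured 12.1, 13.1 and 14.9 TPM in the Col-0 libraries, against 14.9, 26.7 and 18.6 TPM in those labelled rap2.12-2. The lowest of the latter exceeded the highest of Col-0 by 0.01 TPM, 14.94 against 14.93 (log2 fold change 0.52, limma adjusted p = 0.73).

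The vessel proteases were the most abundant of the death genes. XCP1 (AT4G35350, chromosome 4, 16810482 to 16812077, plus strand) and XCP2 (AT1G20850, chromosome 1, 7252111 to 7253747, plus strand) encode papain-like enzymes that digest the contents of the dying vessel. XCP1 measured 80.6, 102 and 101 TPM in the Col-0 libraries, against 128, 139 and 132 TPM in those labelled rap2.12-2 (mean ± SD of 3 libraries 94.3 ± 11.8 against 133 ± 5.58 TPM, ratio 1.41). XCP2 measured 53.4, 67.4 and 65.5 TPM in Col-0 against 96.2, 92.0 and 86.3 TPM (mean ± SD 62.1 ± 7.57 against 91.5 ± 4.96 TPM, ratio 1.47). In both genes every library labelled rap2.12-2 lay above every Col-0 library, and Col-0 replicate 1 was the lowest. The log2 fold changes were 0.50 (95% interval 0.16 to 0.83, limma adjusted p = 0.46) and 0.56 (0.22 to 0.90, limma adjusted p = 0.39). Without Col-0 replicate 1 they were 0.39 and 0.46. An exact permutation test of a single gene over 3 against 3 libraries cannot give a two-sided p below 0.10, the value for any gene whose groups do not overlap.

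The other 3 death genes had overlapping groups. RNS3 (AT1G26820), a ribonuclease, measured 18.4, 25.1 and 21.4 TPM in the Col-0 libraries, against 24.6, 24.4 and 19.0 TPM in those labelled rap2.12-2. BFN1 (AT1G11190), a nuclease of cell death, measured 4.18, 7.38 and 5.51 TPM in Col-0 against 4.93, 5.74 and 5.62 TPM. Their log2 fold changes were near 0 (0.07, 95% interval -0.36 to 0.49, and -0.03, -0.57 to 0.51). MC9 (AT5G04200), a metacaspase that clears the dead vessel cell, measured 7.10, 13.7 and 13.6 TPM in Col-0 against 14.6, 18.3 and 12.8 TPM, with its lowest value in Col-0 replicate 1. Without that library its log2 fold change was 0.13, against 0.41 (95% interval -0.20 to 1.03) with all 6. RNS3 and BFN1 are also known from senescence. In summed level the 5 death genes reached 164 to 215 TPM in the Col-0 libraries, against 255 to 279 TPM in those labelled rap2.12-2, with XCP1 the largest term in every library.

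**Figure D3:**
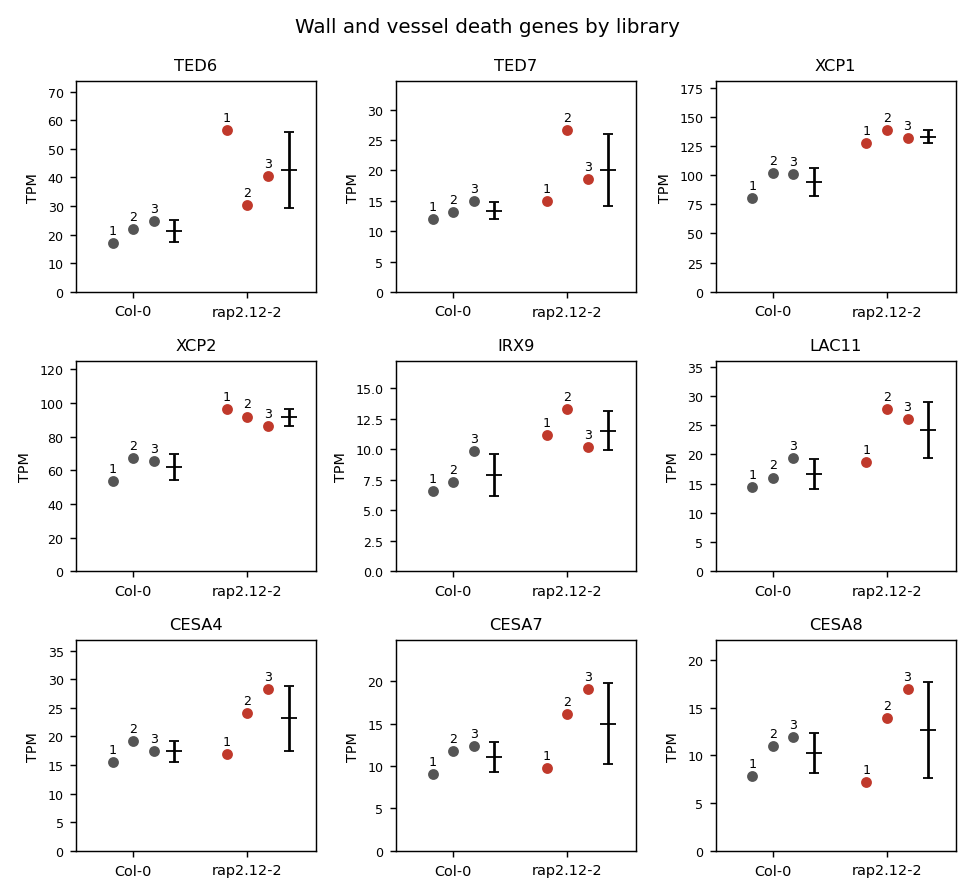
TPM of 9 wall and death genes in each library (points numbered by replicate; grey Col-0, red rap2.12-2; bar, mean ± SD of 3). TED6, TED7, XCP1, XCP2 and IRX9 do not overlap between the groups, while in LAC11 and the 3 CESA genes the library labelled rap2.12-2 replicate 1 falls among the Col-0 libraries or below them.

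The 3 cellulose synthases of the secondary wall, which act as 1 complex, kept the same order in every library. CESA4 (AT5G44030) measured 15.5, 19.2 and 17.5 TPM in the Col-0 libraries, against 17.0, 24.2 and 28.3 TPM in those labelled rap2.12-2. CESA7 (AT5G17420, IRX3 in the reference) measured 9.05, 11.7 and 12.3 TPM in Col-0 against 9.79, 16.1 and 19.1 TPM. CESA8 (AT4G18780, IRX1 in the reference) measured 7.84, 11.03 and 11.9 TPM in Col-0 against 7.18, 13.9 and 17.0 TPM. In each of them the libraries labelled rap2.12-2 replicates 2 and 3 lay above all of Col-0 and replicate 1 among or below the Col-0 libraries, so the groups overlapped. The log2 fold changes were 0.37, 0.37 and 0.22, with limma adjusted p = 0.83, 0.85 and 0.90. These fold changes were 0.22, 0.19 and -0.01 after removal of the library labelled rap2.12-2 replicate 3. They were 0.57, 0.63 and 0.56 without that of replicate 1. Of their summed TPM, CESA4 made up 41.9 to 50.03%, CESA7 28.0 to 29.8% and CESA8 21.1 to 28.5% over the 6 libraries. COBL4 (AT5G15630, IRX6 in the reference), a membrane-anchored protein needed for secondary wall cellulose, had the same pattern, with 5.38, 7.58 and 6.55 TPM in Col-0 against 7.01, 8.81 and 13.3 TPM.

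Against the cellulose synthases of growing primary walls, the secondary wall genes were a minor part of the transcripts. CESA1, CESA3 and CESA6, the usual primary wall trio, summed to 260, 312 and 319 TPM in the Col-0 libraries, against 169, 354 and 354 TPM in those labelled rap2.12-2. CESA4, CESA7 and CESA8 made up 11.1, 11.8 and 11.6% of both sums in the Col-0 libraries, against 16.8, 13.3 and 15.4% in those labelled rap2.12-2. This share does not depend on the scaling of a library, and its groups did not overlap (means 11.5 ± 0.39% and 15.1 ± 1.75%, SD, n = 3 each; exact two-sided permutation test p = 0.10, the smallest possible). In the library labelled rap2.12-2 replicate 1 the high share came with the lowest primary wall sum of all, 169 TPM, and a secondary wall sum of 34.0 TPM, inside the Col-0 range of 32.4 to 42.0 TPM. The share was computed after other values of the set had been seen.

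**Figure D4:**
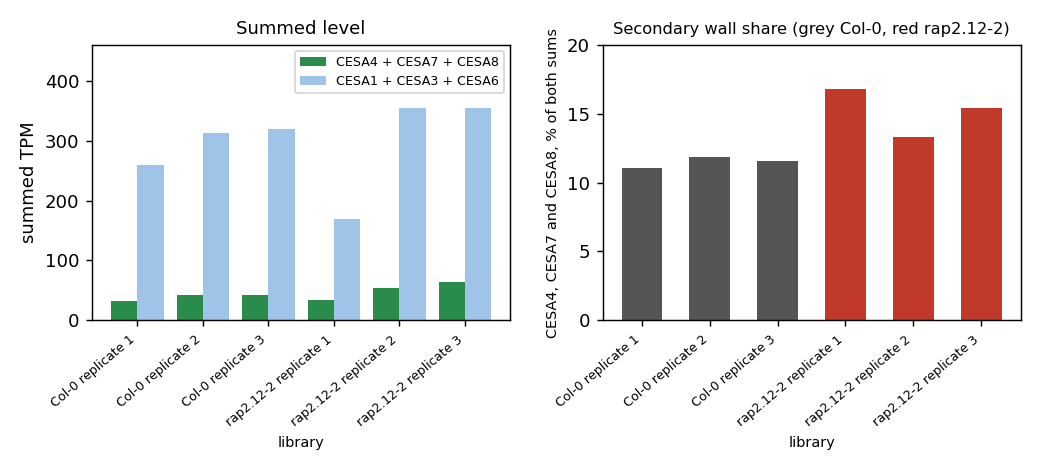
Left, summed TPM of the secondary wall (CESA4, CESA7, CESA8) and primary wall (CESA1, CESA3, CESA6) cellulose synthases in each library. Right, the secondary wall trio as a percentage of both sums, at 11.1 to 11.8% in Col-0 and 13.3 to 16.8% in the libraries labelled rap2.12-2.

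The xylan enzymes and laccases of the set all had positive log2 fold changes with all 6 libraries, with overlapping groups in all but 1. IRX9 (AT2G37090), which elongates the xylan backbone, measured 6.56, 7.33 and 9.88 TPM in the Col-0 libraries, against 11.2, 13.3 and 10.2 TPM in those labelled rap2.12-2. Its groups did not overlap (log2 fold change 0.50, SE 0.21, limma adjusted p = 0.70). IRX10 (AT1G27440, GUT2 in the reference), a second backbone enzyme, measured 17.9, 19.9 and 19.1 TPM in Col-0 against 15.5, 24.7 and 21.0 TPM, and the libraries labelled rap2.12-2 held both the lowest and the highest value. Its log2 fold change of 0.08 turned to -0.06 when rap2.12-2 replicate 2, as labelled, was left out.

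The laccases oxidise lignin precursors in the wall. LAC11 (AT5G03260) measured 14.4, 16.0 and 19.4 TPM in the Col-0 libraries, against 18.7, 27.7 and 26.0 TPM in those labelled rap2.12-2 (log2 fold change 0.50, SE 0.20, limma adjusted p = 0.68). Col-0 replicate 3 exceeded the library labelled rap2.12-2 replicate 1, so its groups overlapped. LAC17 (AT5G60020) measured 16.2, 15.1 and 17.7 TPM in Col-0 against 14.7, 21.9 and 24.7 TPM and LAC4 (AT2G38080, IRX12 in the reference) 11.3, 10.3 and 12.6 TPM in Col-0 against 7.65, 10.7 and 18.6 TPM. In LAC4, as in CESA8, the library labelled rap2.12-2 replicate 1 was the lowest of all 6 and replicate 3 the highest. The log2 fold change of LAC4 was 0.02, and ran from -0.30 to 0.29 on leaving out 1 library. LAC17 is overlapped over 2266 bases by the long non-coding RNA gene AT5G60022 on the other strand, so its reads cannot be assigned with certainty. Of the 36 members, 12 overlap another annotated gene. Among them CESA8 (481 bases), VND2 (270 bases) and ACL5 (196 bases) share a shorter part with a protein-coding gene on the other strand, where the same limit holds.

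The fasciclin-like proteins FLA11 and FLA12, surface glycoproteins of thickening walls, had small positive values that did not pass the test. FLA11 (AT5G03170) measured 11.3, 17.4 and 12.4 TPM in the Col-0 libraries, against 16.5, 20.8 and 16.0 TPM in those labelled rap2.12-2. FLA12 (AT5G60490) measured 10.3, 8.24 and 13.6 TPM in Col-0 against 10.2, 10.1 and 15.5 TPM. Col-0 and the libraries labelled rap2.12-2 overlapped in both (log2 fold changes 0.36 and 0.15). The 5 genes with a TERE match near the start, XCP1, CESA4, FLA11, MC9 and LBD30, all had positive log2 fold changes, from 0.21 to 0.50, and none passed the test. All but LBD30 belong to the 18 wall and death genes, of which 17 were positive, where 46.7% of all tested genes were. A link between the element and the direction was not tested.

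ACL5 and PXY were the most abundant members in Col-0, and PXY lay below XCP1 in mean level in the libraries labelled rap2.12-2. ACL5 (AT5G19530), the thermospermine synthase, measured 171, 171 and 217 TPM in the Col-0 libraries, against 149, 158 and 175 TPM in those labelled rap2.12-2. Its mean in Col-0 was higher than that of 95.6% of tested genes. PXY (AT5G61480), the receptor of the cambium peptide TDIF, measured 144, 109.5 and 159 TPM in Col-0 against 78.6, 115 and 134 TPM, and its lowest value was in the library labelled rap2.12-2 replicate 1. The groups of both genes overlapped, with log2 fold changes of -0.21 (95% interval -0.56 to 0.14) and -0.35 (-0.87 to 0.17).

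Libraries of the same genotype differed among themselves across the set. Col-0 replicate 1 held the lowest value of 18 of 33 tested members (54.5%) and of 35.0% of all tested genes, and that of 13 of the 18 wall and death genes. The library labelled rap2.12-2 replicate 3 held the highest value of 10 members (30.3%) and of 10.3% of all tested genes. In the library labelled rap2.12-2 replicate 1 the members diverged: it was the highest for TED6, XCP2 and XND1 and the lowest for 11 members, among them VND3, CESA8, LAC4 and PXY. The median deviation of the 18 wall and death genes from their own means was -0.43, -0.11 and -0.03 in the Col-0 libraries, against -0.11, 0.30 and 0.30 in those labelled rap2.12-2 (log2, replicates 1 to 3 in each). For all tested genes these medians were -0.15, 0.10 and 0.09, and -0.16, 0.10 and 0.05. The library total and this outlying library move with the gap in these genes, and their part in it was not tested beyond the fits that leave them out or rescale them. After rescaling to nuclear protein-coding genes, a choice made after the data were seen, 14 of the 18 wall and death genes were positive, and 17 of 18 lay above the median of all tested genes, which was -0.10. A single factor per library shifts all genes nearly alike, so this count above the median could hardly change. It was also 17 in the main fit and says nothing on the part of scaling.

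**Figure D5:**
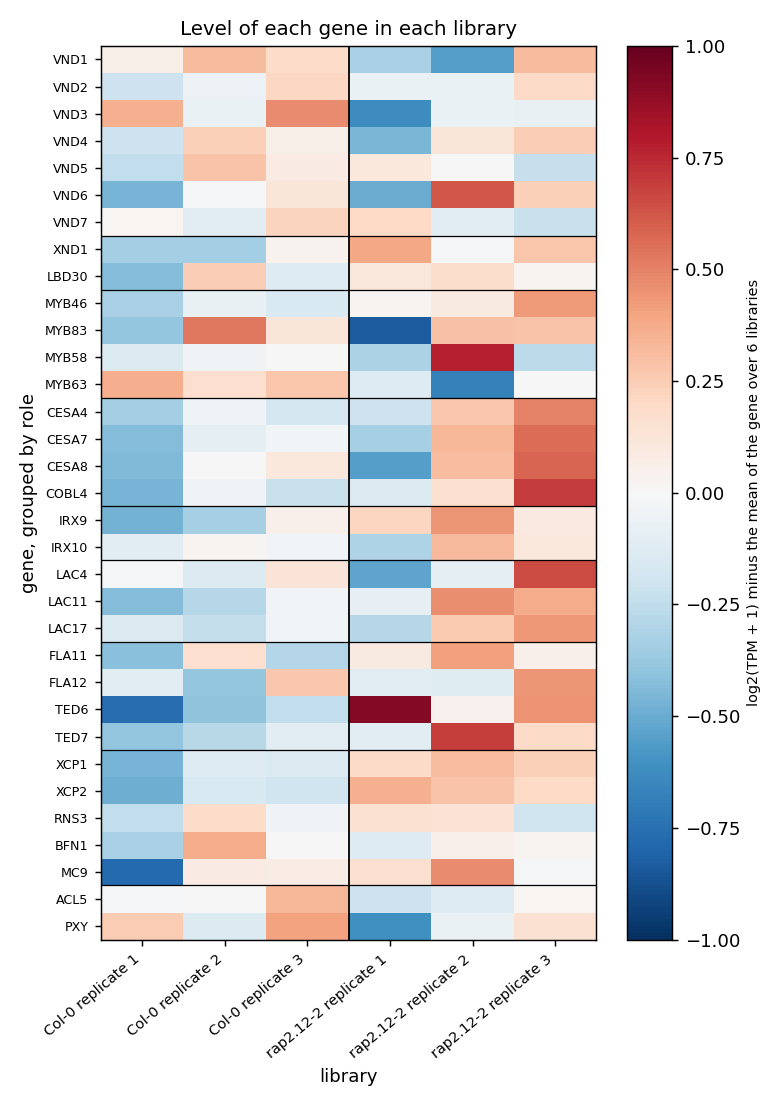
Log2(TPM + 1) of each of the 33 tested genes in each library, minus the mean of that gene over the 6 libraries, with genes grouped by role (horizontal lines) and genotypes split by the vertical line. Col-0 replicate 1 is blue for most wall and death genes, and the library labelled rap2.12-2 replicate 1 holds both the reddest cell, TED6, and many blue ones.

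Other genes of xylem wall formation were listed by known role. Of all tested genes, 46.7% had a log2 fold change above 0, and at an unadjusted p under 0.05, 3.22% lay higher and 3.62% lower. Their groups did not overlap in 6.62% that lay higher and in 6.03% that lay lower. Of 14 further regulators, 9 were tested and 6 had a log2 fold change above 0 (median 0.27, and 0.10 to 0.46 on leaving out 1 library), and 0 passed in limma (at an unadjusted p under 0.05, 1 lay higher and 1 lower). LBD15, a LOB-domain gene of the same family as LBD30, measured 19.9, 26.1 and 19.4 TPM in the Col-0 libraries, against 32.2, 52.3 and 33.8 TPM in those labelled rap2.12-2. Its groups did not overlap (log2 fold change 0.80, limma adjusted p = 0.40). MYB43, a MYB gene of the secondary wall network, measured 9.23, 10.1 and 11.3 TPM in Col-0 against 6.03, 7.85 and 7.75 TPM, also without overlap (log2 fold change -0.45, limma adjusted p = 0.72). Of 13 genes for xylan and other wall synthesis, all were tested, 12 had a log2 fold change above 0, 0 passed in limma, and at an unadjusted p under 0.05, 2 lay higher and 0 lower. These were IRX15, which sets xylan chain length (6.43, 12.1 and 8.71 TPM in Col-0 against 14.2, 12.1 and 15.0 TPM), and CTL2, a chitinase-like gene linked to cellulose (16.8, 26.5 and 22.3 TPM in Col-0 against 26.1, 35.5 and 31.0 TPM). The median log2 fold change of this list was 0.15. It was 0.08 with organelle genes removed, 0.07 after rescaling to nuclear protein-coding genes, 0.06 without Col-0 replicate 1, and 0.29 when rap2.12-2 replicate 1, as labelled, was left out. Between 10 and 12 of its genes were positive under these 4 alternatives.

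The enzymes that make lignin monomers were mostly below 0. Of 13 monolignol genes, 9 had negative values (median -0.12), where 53.3% of all tested genes did, and 0 passed in limma at the adjusted or at the unadjusted threshold. The median was -0.06 once the library labelled rap2.12-2 replicate 1 was left out. The smallest p was that of COMT1, a methyltransferase of lignin synthesis, at 192, 245 and 232 TPM in the Col-0 libraries, against 164, 178 and 199 TPM in those labelled rap2.12-2. Of 7 peroxidases and further laccases, 5 were tested, 2 positive and 3 negative (0 to 3 positive on leaving out 1 library), and 0 had an unadjusted p under 0.05 (LAC5 the smallest, log2 fold change -0.28). Among 5 tested genes that pattern the vessel wall, 3 were positive (2 to 5 on leaving out 1 library) and 0 had an unadjusted p under 0.05, with the smallest for MIDD1, which clears microtubules at pits (0.22). Among 5 primary wall cellulose synthases, 4 were negative and 0 had an unadjusted p under 0.05, with the smallest for CESA2 (0.41). Without the library labelled rap2.12-2 replicate 1 all 5 were positive, with a median of 0.27 against -0.09 with all libraries, and without replicate 1 of both groups 4 were positive.

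Genes of procambium and of the CLE41 and PXY pathway had mostly negative log2 fold changes with all 6 libraries. Of 11 genes of procambium and xylem identity, 9 lay below 0 (median -0.15) and 0 passed in limma, with 1 lower at an unadjusted p under 0.05. Of all tested genes, 53.3% lay below 0 and 3.62% lay lower at that unadjusted threshold. Without the library labelled rap2.12-2 replicate 1, 6 of 11 lay below 0 (median -0.02), and without Col-0 replicate 3, 7 of 11 did (median -0.06). The gene with the unadjusted p under 0.05 was ATHB15, a class III HD-ZIP gene, at 162, 165 and 205 TPM in the Col-0 libraries, against 81.6, 145 and 147 TPM in those labelled rap2.12-2 (log2 fold change -0.55, limma adjusted p = 0.72). Of 7 tested genes around PXY, 5 were negative and 1 lay lower at an unadjusted p under 0.05: WOX4, the cambium factor that PXY maintains, measured 66.2, 48.4 and 66.1 TPM in Col-0 against 39.4, 35.9 and 46.6 TPM (log2 fold change -0.55, limma adjusted p = 0.52). The median of these 7 was -0.24, and -0.03 with rap2.12-2 replicate 1, as labelled, left out.

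Markers of neighbouring cell types were read beside these values. Of all tested genes, 53.3% were negative and 3.62% lay lower at an unadjusted p under 0.05. In 6.03% of them the groups did not overlap and lay lower. Of 7 cambium markers, 6 were negative, and WOX4 and LBD4 lay lower at an unadjusted p under 0.05. LBD4 measured 172, 143 and 160.1 TPM in the Col-0 libraries, against 113, 88.6 and 130.1 TPM in those labelled rap2.12-2. The cambium markers summed to 410.4 to 454 TPM in the Col-0 libraries, against 276 to 409 TPM in those labelled rap2.12-2. These ranges did not overlap, by the narrow gap of 410.36 to 408.74 TPM. WOX4, also a gene of the PXY list, and LBD4 are terms of these sums and did not overlap between the groups, while the other cambium markers did. Of 12 phloem markers, 9 were tested, 7 were negative and 0 had an unadjusted p under 0.05 (APL the smallest, log2 fold change 0.45). They summed to 166 to 191 TPM in Col-0 against 102 to 175 TPM, and the phloem sugar exporter gene SWEET11 was listed at 0 in all 6 libraries. The 4 epidermis markers were all negative, with sums of 37.4 to 62.8 TPM in Col-0 against 24.6 to 46.3 TPM and the smallest p for PDF1, which lay lower at an unadjusted p under 0.05 (log2 fold change -0.83, limma adjusted p = 0.66). The 5 endodermis markers, of which 4 were tested and 3 negative, summed to 51.1 to 67.8 TPM in Col-0 against 48.3 to 68.3 TPM, with the smallest p for GPAT5 (-0.38). In the root primordium list 6 of 7 were tested and 4 were negative, with sums of 453 to 511 TPM in Col-0 against 315 to 414 TPM. These sums did not overlap between the groups, nor did the WOX11 levels, which are a large term of them. PLT1, PLT2, SHR and LBD16 overlapped between the groups, and WOX5 did not (log2 fold change -0.10). WOX11, a homeobox gene of root founder cells, was the 1 gene of this list at an unadjusted p under 0.05 and had a smaller p than any xylem member (log2 fold change -0.90, limma adjusted p = 0.32). It measured 193, 171 and 196 TPM in Col-0 against 73.4, 103 and 130.4 TPM. The 2 tested photosynthesis genes of 4 were both negative, with LHCA2 at -0.51. Under quantile scaling 5 of the 9 phloem, 2 of the 4 endodermis and 1 of the 4 epidermis markers were positive. Without the library labelled rap2.12-2 replicate 1, 4 of the 7 cambium markers (median 0.01) and 6 of the 9 phloem markers (median 0.09) were positive. Without Col-0 replicate 2, 2 of the 4 epidermis markers were positive, and without Col-0 replicate 3, 2 of the 4 endodermis markers. The part of these cell types in the values of the xylem genes was not tested.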

How the data were processed

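Libraries of 6 callus samples were made from 1 µg of RNA each with a TruSeq kit, per the labels' protocols. The authors deposited 1 table of TPM. STAR 2.7.10a, RSEM 1.3.1 and the build TAIR10 are named, without roles, per the submitters' processing notes, and the strand setting is not given in the sources used here. TPM rests on each library's total, so a few abundant transcripts lower all others, and depth cannot be recovered.

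Columns were matched by title. Genes averaging 1 TPM or more were taken as log2(TPM + 1), a scale that understates changes of low genes, and ratios are of mean TPM. Genotypes were compared with limma 3.58.1 (R 4.3.3, mean-variance trend), tested on simulated data, with Benjamini-Hochberg adjustment over all 18629 tested genes at 0.05. Each adjusted p is limma's. Coordinates, promoters and overlaps come from RefSeq TAIR10.1 by locus code (31217 of 31305 loci matched), and similar stretches from BLAST 2.17.0. Members and lists were chosen with earlier results of these data known, and XCP1 and XCP2 had been seen to lie higher. Within the other lists, up to 4 genes with an unadjusted p under 0.05 are named, otherwise that with the smallest p. Genes named beyond this rule were chosen after their values were seen. Alternatives covered the pseudocount, filter, scaling, variance prior, replicate block and left-out libraries.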

Additional observations from a re-analysis of the deposited data

How the results depend on the processing

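Under 18 alternatives, 0 members passed in limma, and the lowest adjusted p of any member was 0.16. The replicate numbers did not clearly pair the libraries. Deviations from the group means correlated at 0.20, 0.35 and -0.11 for same-numbered libraries, and at -0.34 to 0.23 for differently numbered ones. Deviations within a group cancel out, so these correlations depend on each other and cannot settle whether the numbers pair. With the replicate block, 0 members and 2 higher and 2 lower of all genes passed, against 8 and 5 without it. All genes called ranged from 2 to 23 higher and 2 to 9 lower on leaving out 1 library. They were 0 and 0 without replicate 1 of both groups, 3 and 3 with no filter, 3 and 6 with median-of-ratios scaling, and 2 and 3 with no variance trend. Leaving out 1 library gave 20 to 26 positive members (median 0.06 to 0.32) and 14 to 18 positive wall and death genes (0.23 to 0.52). The sign held under each alternative that tested the gene for 20 of 33 members, among them TED6, TED7, XCP1, XCP2, IRX9, LAC11, CESA4, CESA7 and MYB63.

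For 13 members the sign turned in 32 of 584 values, and the cause was not tested. Quantile scaling gave 0.016 for VND4 and 0.042 for BFN1. Removal of organelle genes gave -0.035 for VND2, -0.051 for LAC4 and -0.011 for RNS3. Rescaling to nuclear protein-coding genes gave -0.040 for VND2, -0.0026 for IRX10, -0.056 for LAC4 and -0.016 for RNS3. Without replicate 1 of both groups VND2 was -0.012, VND4 0.038 and RNS3 -0.10. Leaving out 1 library gave -0.055 to 0.15 for VND2, -0.20 to 0.15 for VND4, -0.22 to 0.045 for VND5, -0.013 to 0.54 for VND6 and -0.21 to 0.0025 for VND7. It gave -0.41 to 0.20 for MYB83, in the 3 fits that tested this gene, against 6 fits for the others given here. The range was -0.23 to 0.32 for MYB58, -0.0094 to 0.56 for CESA8, -0.064 to 0.25 for IRX10 and -0.30 to 0.29 for LAC4. It was -0.039 to 0.32 for FLA12, -0.040 to 0.18 for RNS3 and -0.20 to 0.14 for BFN1. TPM keeps no depth, so the precision of low genes such as XND1, MYB83 and MYB58 cannot be given beyond the spread of 3 libraries.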
